A study of Mus musculus with 24 samples.

Results

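The 200 cytosines described here are the sites on the H strand of mouse mtDNA that kept the highest unconversion rates after 5 min of bisulfite treatment of synthetic mtDNA. They were chosen by the percent of unconverted reads in the synthetic 5 min library (S1_05), highest first, among the 1760 H-strand sites with coverage of at least 50 reads there, with ties taken in order of position. The remaining 1560 of these sites, called the other sites below, served for comparison. A further 179 of the 1939 listed H-strand cytosines fell short of the coverage, and the list of both strands holds 5829 cytosines. Because S1_05 chose the 200 sites, its values are given as a description only. The native libraries and the later synthetic libraries took no part in the choice.

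The study asked whether mammalian mtDNA carries 5-methylcytosine (5mC), and followed the conversion of cytosines over time in 24 libraries made by post-bisulfite adapter tagging. Native mtDNA came from wild-type E14 mouse embryonic stem cells (ESCs) grown on irradiated STO feeder fibroblasts in 2i-LIF medium, and from brain and liver of wild-type mice, labelled C57BL/6J in all brain and liver libraries. The methods also mention purchased liver of ICR mice without saying where it was used. It was extracted from mitochondria that had been purified and treated with Benzonase, linearised with BglII and denatured by heat. Synthetic mtDNA is a PCR product made from native mtDNA with standard nucleotides, so that it is free of 5mC, and nearly full in length. ESC preparations 1 and 2 (E1, E2), brain preparation 1 (B1), liver preparation 1 (L1) and synthetic mtDNA (S1) were treated for 5, 15, 40 and 60 min, ESC preparation 3 (E3) for 60 and 90 min, and brain and liver preparations 2 (B2, L2) for 60 min. A library is named by its preparation and duration, as in B1_60. Each preparation gave 1 library per duration, so preparations are the replicates and synthetic mtDNA has none. Feeder cells were part of the ESC cultures, and the sources used here do not give the ages of the mice.

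For every listed cytosine the deposited values are the coverage in reads and, as a percent of it, the reads with the cytosine unconverted, here called the unconversion rate. The libraries held between 195921 and 1876342 H-strand calls, with a median coverage per H-strand cytosine between 68 and 631 reads. Rates were used where the coverage was at least 10. In all 24 libraries the 200 sites were covered less deeply than the other sites, with a median coverage of 56.7 to 80.5% of theirs. In S1_05 itself, 25.0% of the 200 sites had fewer than 100 reads against 9.36% of the other sites. The part of coverage in the results below was not tested, except where a value at a higher coverage minimum is given.

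Bisulfite deaminates cytosine to uracil, which is read as thymine after amplification, while 5mC reacts far more slowly and stays a cytosine. The reaction needs single-stranded DNA, so a cytosine that is paired or buried when the reagent meets it is converted late. An incompletely converted cytosine therefore looks the same in the reads as a methylated one. The strands of mtDNA differ in base composition, and the H strand, rich in guanine, holds fewer cytosines than the L strand.

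The sequences below are of the H strand, written from 5′ to 3′, so that the nt number falls from left to right, and the capitals mark cytosines that are among the 200. They were read from the RefSeq mouse mtDNA sequence of build GRCm38 (mm10), in which all listed H-strand positions hold a cytosine of that strand. The 3 longest runs of consecutive listed H-strand cytosines that all belong to the 200 are shown because the highest rates and the densest groups lie there. They lie in mt-Rnr1, the gene of the small-subunit ribosomal RNA, in TrnY, the gene of tyrosine tRNA, and in mt-Rnr2, the gene of the large-subunit ribosomal RNA.
run of 8 in mt-Rnr1, chrM:858-897: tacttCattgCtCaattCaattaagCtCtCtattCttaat
run of 7 in TrnY, chrM:5256-5292: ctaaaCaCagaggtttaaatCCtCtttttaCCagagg
run of 4 in mt-Rnr2, chrM:1223-1253: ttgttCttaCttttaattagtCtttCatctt
The 5 sites that kept the highest mean rates in native mtDNA after 60 min are shown with 10 bases on either side, because their rates were the highest late in the reaction among the 186 of the 200 sites covered by 10 or more reads in all 7 native libraries of 60 min.
mt-Rnr2, chrM:1756-1776: acgcgtatgcCtggagaattg
TrnA, chrM:5040-5060: gatttgcattCaatagatgta
mt-Rnr1, chrM:656-676: gctgaattagCaagagatggt
COX1, chrM:6239-6259: attatagtggCtgatgtaaag
ND1, chrM:3276-3296: ggctatgggtCaggctggCag
For comparison, these are the 2 sites outside the run of 8 with the highest rates in S1_05.
TrnV, chrM:1043-1063: gggtgtaggCCagatgcttta
COX2, chrM:7434-7454: gttctattggCagaacgactc

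In S1_05 the 200 sites had rates between 35.8 and 93.2%. The rank of 200 fell inside a group of sites with equal rates. The last sites inside, nt 12447 in ND5, nt 2588 in mt-Rnr2 and nt 5262 in TrnY, had 35.9, 35.8 and 35.8%. The next sites outside, nt 9417 in TrnG, nt 9660 in ND3 and nt 11198 in ND4, had 35.8% each. Their Wilson 95% intervals, which cover counting error only, ran from 26.2 to 46.7% at nt 5262 and from 29.1 to 43.2% at nt 9660. Sites just inside and just outside the rank of 200 thus differed by less than their counting error.

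The 200 sites were also slow in native mtDNA after 5 min. Their mean rate was 40.7% in E1_05, 41.4% in E2_05, 40.4% in B1_05 and 40.8% in L1_05, against 30.7, 31.9, 30.03 and 30.4% for the other sites in the same libraries. The values of the sites chosen and of the other sites do not overlap between libraries. The mean difference was 10.1 percentage points ± 0.457 (SD, n = 4 preparations), higher in 4 of 4 preparations. In S1_05, where the sites were chosen, the means were 41.6 and 27.4%. With the run of 8 in mt-Rnr1 left out, the native difference was 8.55 ± 0.356 points, and with 100 or more reads required in S1_05 it was 8.33 points.

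**Figure D1:**
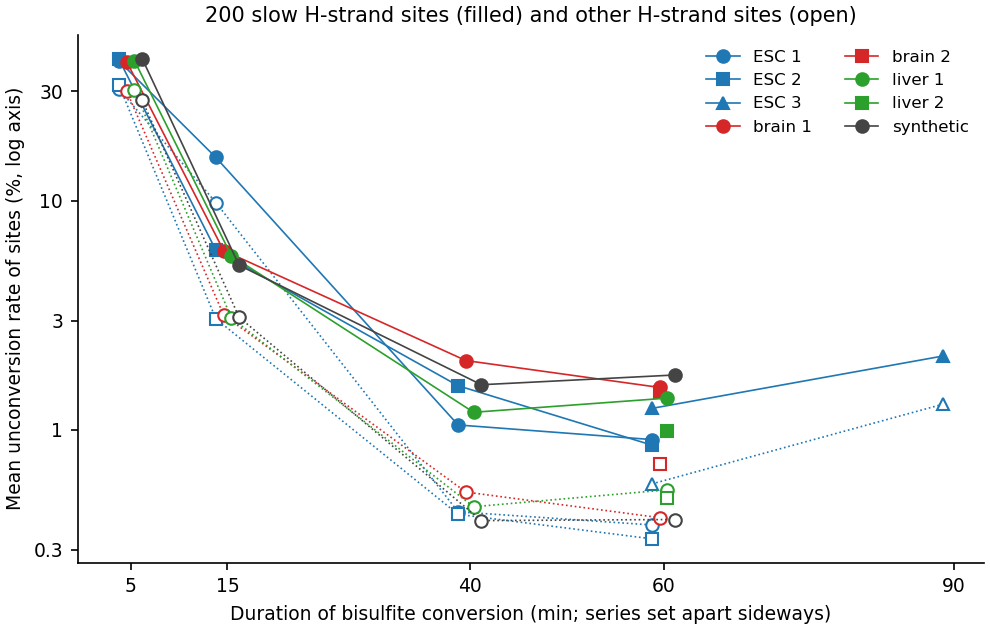
Mean unconversion rate (%, log axis) of the 200 slow H-strand sites (filled symbols, solid lines) and of the 1560 other sites (open symbols, dotted lines) against the duration of bisulfite conversion (min), 1 point per library and 1 line per preparation. The filled symbol lies above the open symbol of the same library in all 24 libraries, and E1_15 lies above the other 15 min libraries for both groups of sites.

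Most single sites had the same direction. In a quasi-binomial model of unconverted reads per site, each native 5 min library was set against its own median H-strand rate, and a site was called slow when its rate was higher with a Benjamini-Hochberg adjusted p under 0.05. Of the 200 sites, 147 were called slow, beside 26.0% of all 1928 H-strand sites tested and 313 of the 1560 other sites. The fitted difference was above 0 at 187 of the 200 sites and below 0 at 13. The median native mean over the 200 sites was 39.1%, with quartiles of 36.0 and 42.4%, against 31.1% (27.7 and 34.3%) over the other sites. Of the 200 sites, 192 lay above the median of the other sites, 136 above their 90th percentile and 10 above their highest value of 56.5%. Conversely, of the 200 H-strand sites with the highest native 5 min means, 109 belonged to the group, although it makes up 11.4% of the sites meeting the coverage rule.

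**Figure D2:**
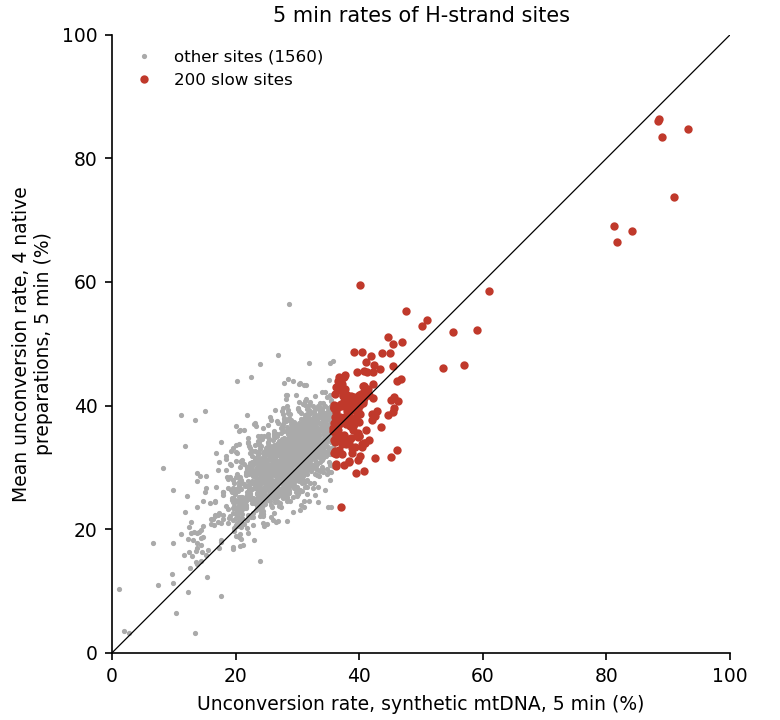
Unconversion rate of each H-strand site after 5 min, with synthetic mtDNA on the horizontal axis (%) and the mean of the 4 native preparations on the vertical axis (%), for the 200 slow sites (red) and the 1560 other sites (grey). The line marks equal rates, and the 8 points at the upper right are the run in mt-Rnr1.

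The order of the sites was shared between preparations. Across the 192 sites outside the run of 8, Pearson's r between pairs of native 5 min libraries was 0.611 to 0.687, and between native libraries and S1_05 it was 0.433 to 0.521. Over all 1760 sites these values were 0.765 to 0.810 and 0.699 to 0.783. The points of such a correlation are sites, many of which lie on the same reads, and the narrow range set by the rule lowers r among the 200.

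The highest rates lay in the run of 8 in mt-Rnr1, nt 863 to 892, whose sequence is given above. All 8 sites are in CHH context (H is A, C or T) and stand within 30 bases. In S1_05 they had 81.2 to 93.2%, at coverages of 60 to 91 reads. At nt 885, the highest of all, the rate was 93.2% in S1_05, 84.9% in E1_05, 82.5% in E2_05, 87.2% in B1_05 and 84.3% in L1_05. These native rates exceeded the library medians with an adjusted p of 5.22e-18 (quasi-binomial test, n = 4, spread moderated with limma). At nt 887 the native rates were 83.0, 85.4, 89.0 and 88.2% in the same order, the highest native mean of the 200 sites, 86.4% ± 2.74 (SD, n = 4). Within the run, the sites at the higher nt numbers, toward the 5′ end of the H strand, had the higher native means. They were 83.4 to 86.4% at nt 880, 885, 887 and 892, against 66.5 to 73.8% at nt 863, 868, 870 and 872. The mean over the 8 sites was 71.6% in E1_05, 75.9% in E2_05, 81.3% in B1_05, 80.5% in L1_05 and 87.1% in S1_05.

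The run of 8 was covered by few reads after the first 5 min. Its median coverage was 28.3 to 51.5% of the H-strand median in the 5 min libraries, and 2.08 to 3.88% in the 60 min libraries. Over its sites with 10 or more reads, the mean rate was 20.3 to 44.2% in the 4 native 15 min libraries and 10.4% in S1_15. At 40 min it was 3.04% in E1_40, 15.7% in E2_40, 17.4% in B1_40, 7.48% in L1_40 and 30.3% in S1_40, each above the mean of the other sites in that library. In S1_60, the 60 min library with the deepest H-strand coverage, all 8 sites had at least 11 reads and a mean rate of 19.8%. In 5 of the 7 native 60 min libraries none of its sites had 10 reads, and B1_60 had 5 such sites with a mean of 23.5% and L1_60 had 1 with 27.3%. Over the 7 libraries together, 47 of 336 calls in the run were unconverted (14.0%), and in S1_60 48 of 209 (23.0%). The native libraries differed widely in this, with 0.0% at all 8 sites in E1_60 and E3_60, at 2 to 8 reads per site, and a mean over all its sites read of 6.08% in L2_60, 11.3% in E2_60, 14.7% in B1_60, 32.3% in L1_60 and 58.3% in B2_60, the last at 1 to 3 reads. Many of these calls share a read and the native total rests on a few reads per library, so no interval is given. The part of the falling coverage in the rates of the run was not tested.

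The runs in TrnY and mt-Rnr2 were of another kind. The 7 sites of the TrnY run, nt 5261 to 5287, had mean rates of 40.2% in E1_05, 38.2% in E2_05, 42.5% in B1_05 and 36.0% in L1_05. These means lie between those of the 200 sites and those of the other sites, or just above the former in B1_05. After 60 min the run was mostly converted, with 3 of 1676 native calls unconverted (0.179%) and 10 of 884 in S1_60 (1.13%). The 4 sites of the mt-Rnr2 run, nt 1228 to 1248, had native 5 min means of 32.3 to 37.3% per library, also between the means of the 200 sites and those of the other sites. After 60 min, 3 of 646 native calls in this run were unconverted (0.464%) and 0 of 355 in S1_60. These runs were covered by 78 to 86 and 54 to 71 reads per site in S1_05. All told, the 200 sites formed 164 runs, of which 142 were single sites, 18 were pairs and 1 was a run of 3 in TrnS2.

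Outside the run of 8, the highest rates in S1_05 were at nt 1053 in TrnV, the gene of valine tRNA, with 61.0% of 154 reads, and at nt 7444 in COX2, a cytochrome c oxidase subunit gene, with 59.0% of 329 reads. At nt 1053 the native rates were 56.2% in E1_05, 54.2% in E2_05, 60.5% in B1_05 and 63.0% in L1_05. At nt 7444 they were 56.4, 47.3, 52.8 and 52.6% in the same order. Both were called slow at 5 min (adjusted p = 2.16e-11 and 1.78e-11, quasi-binomial test moderated with limma). All 8 values stand above the mean of the 200 sites in the same library.

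The 5 lowest native 5 min means among the 200 sites lay below the native mean of the other sites. The lowest native 5 min mean was at nt 6225 in COX1, with 19.0, 15.0, 25.0 and 35.7% in E1_05, E2_05, B1_05 and L1_05, a mean of 23.7% ± 9.01 (SD, n = 4). Its rate of 37% in S1_05 rested on 54 reads, with a Wilson 95% interval of 25.4 to 50.4%. The next lowest were nt 15896 in the control region (29.2% ± 1.86), nt 5269 in TrnY (29.4% ± 4.58), nt 5861 in COX1 (30.2% ± 2.04) and nt 9796 in ND3 (30.5% ± 2.43). Of these, nt 15896 had 259 reads and 39.4% in S1_05, above its 4 native values of 26.5 to 30.8%.

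The sites differed from the other sites most in the base that follows them. Of the 200 sites, 130 (65.0%) were followed by adenine on the H strand, against 21.0% of the other sites. Thymine followed 21.0% of them against 42.7%, cytosine 8.0% against 20.6%, and guanine 6.0% against 15.7%. The shares also varied with the base before. In the order base before, cytosine, base after, GCA had 45 of its 99 sites in the group (45.5%), ACA 36.5% of its sites, CCA 31.5% and TCA 14.1%, whereas CCC had 0 of 50. By CpG class, CG sites made up 6.0% of the 200 and 15.7% of the other sites, CHG sites 29.5 and 17.9%, and CHH sites 64.5 and 66.3%. These shares describe a choice made on S1_05 and carry no test.

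The native libraries, which took no part in the choice, can be read by base over all 1760 sites. After 5 min the mean native rate was 35.8% ± 0.731 (SD, n = 4) at sites followed by adenine, 31.2% ± 0.855 by guanine, 30.6% ± 0.813 by thymine and 29.8% ± 0.681 by cytosine. Adenine gave the highest mean in 4 of 4 preparations, 35.2 to 36.9%, and its lowest value lay above the highest value of the other bases, 32.4%. The ranges of guanine and thymine over the preparations overlapped. The highest triplet mean was that of GCA, 37.7% ± 0.983, and the lowest that of CCC, 27.9% ± 0.961. At sites with the same following base, the 200 sites still stood above the other sites. Outside the run of 8 the native difference was 6.40 ± 0.488 points before adenine, 8.03 ± 0.370 before thymine, 8.53 ± 0.703 before cytosine and 6.24 ± 1.81 before guanine (SD, n = 4). Among the sites called slow, those before adenine were 102 of 130 of the group and 125 of 327 of the other sites, and those before thymine were 29 of 42 and 108 of 666. The 12 CG sites of the group had a native 5 min mean of 37.2% ± 2.07 and 8 of them were called slow, against 49 of the 245 other CG sites.

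**Figure D3:**
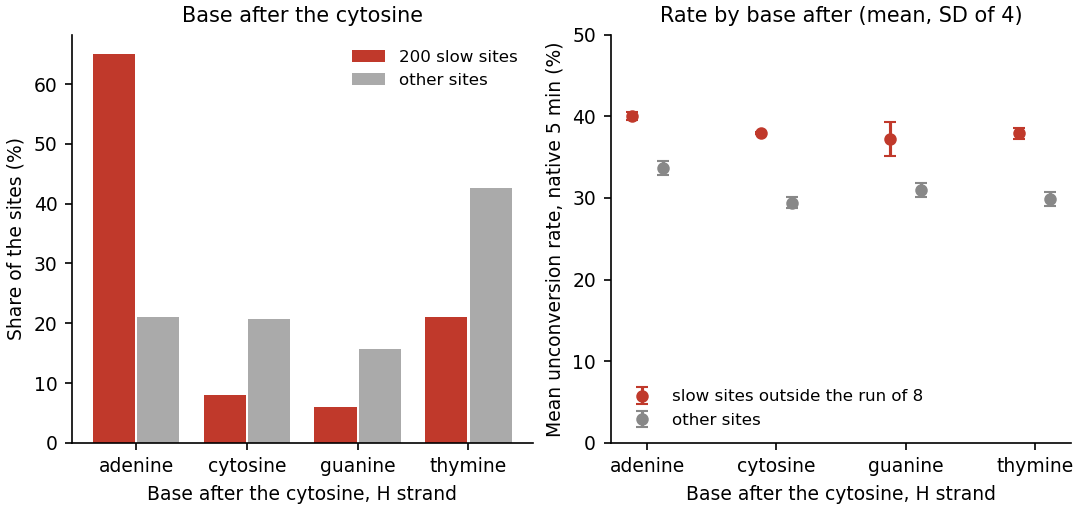
Left, share (%) of the 200 slow sites (red bars) and of the 1560 other sites (grey bars) by the base that follows the cytosine on the H strand. Right, mean native unconversion rate after 5 min (%) by that base, for slow sites outside the run of 8 and for the other sites, as the mean and SD of 4 preparations, where adenine has the highest mean in both groups.

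Composition and spacing around the sites differed little. Within 10 bases the 200 sites had on average 5.80 A, 3.79 C, 4.85 G and 6.57 T on the H strand, and the other sites 5.59, 3.77, 4.75 and 6.89. The nearest listed H-strand cytosine lay at a mean distance of 4.14 bases in both groups, and the nearest listed L-strand cytosine at 2.46 and 2.59 bases. The SDs of these values over single sites were far larger than the differences. Such SDs are not errors of the means, and the differences were not tested. Of the 200 sites, 75.0% stood alone, without another cytosine beside them, against 62.9% of the other sites. None lay in a run of 4 or 5 cytosines, which held 16 and 15 of the other sites. L-strand cytosines within 10 bases had a mean 5 min rate of 49.7% ± 0.756 in native mtDNA (SD, n = 4) beside the 200 sites and of 56.4% ± 1.06 beside the other sites. These L-strand rates appear to include the largely unconverted reads that the study set aside, since the deposited L-strand means were still 29.1 to 41.3% in the 60 min libraries.

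H-strand cytosines next to the 200 sites were more often among the 200 themselves, and those that were not had slightly higher rates than elsewhere. Outside the run of 8, the listed cytosine next to one of the 200 sites was itself one of them in 15.1% of cases on either side, against 9.7 to 10.1% for the other sites. Neighbours that were not among the 200 had native 5 min means of 31.9% ± 0.972 and 32.2% ± 0.977 on the sides of lower and higher nt number, against 30.7% ± 0.798 and 30.6% ± 0.821 next to the other sites. The site in between had 39.3% ± 0.511. From the fourth neighbour outward the means came to 30.6 to 31.4% around the 200 sites and 30.8% around the other sites. Since those among the 200 were left out, the neighbours' means are set in part by the rule.

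**Figure D4:**
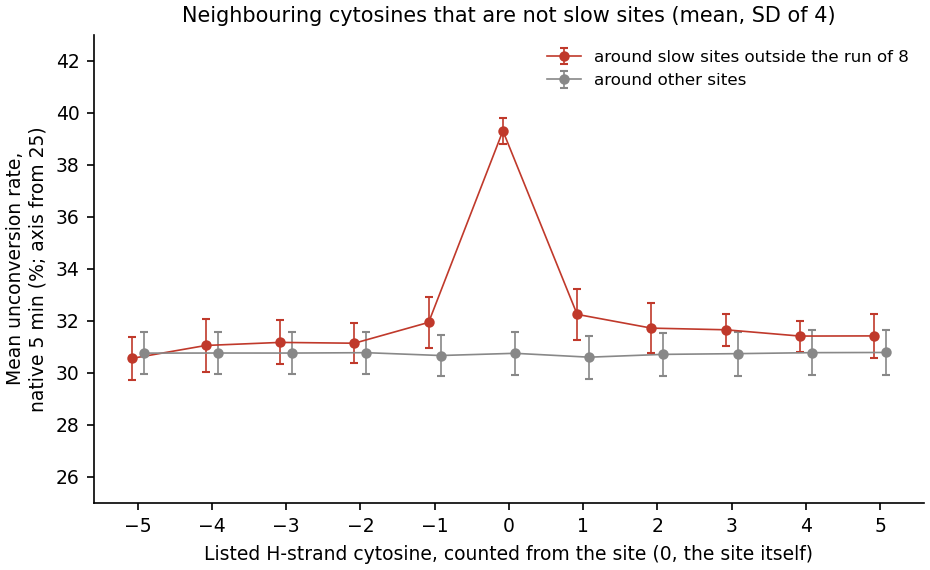
Mean native unconversion rate after 5 min (%, axis from 25) of the listed H-strand cytosines up to 5 places away, in order of nt number, from slow sites outside the run of 8 (red) and from other sites (grey), with neighbours among the 200 left out and bars for the SD of 4 preparations. The red line peaks at the site itself at 39.3% and lies between 30.6 and 32.2% at its neighbours.

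By gene, the 200 sites were spread over the molecule, in 31 of the annotated regions. The tRNA genes held 32 of them, 22.7% of the 141 tRNA sites meeting the coverage rule, the rRNA genes 42 (15.9%), the protein genes 118 (9.4%) and the control region, which holds the origin of H-strand replication, 8 (8.51%). Some of the 22 tRNA genes had no site meeting the rule and add nothing to this share. Over all sites meeting the coverage rule the share was 11.4%. TrnY alone held 8 of the 32 tRNA sites, out of its 10, and 34 of the 42 rRNA sites lay outside the run of 8. Among regions with 20 or more sites, the shares were highest in mt-Rnr1 (22 of 122 sites, 18.0%), ND5 (28 of 181, 15.5%), mt-Rnr2 (20 of 142, 14.1%), COX3 (14 of 108, 13.0%) and COX2 (11 of 90, 12.2%). They were lowest in ND1 (5 of 111, 4.50%), ND2 (4 of 83, 4.82%), ND6 (2 of 31, 6.45%), CYTB (9 of 136, 6.62%) and ATP6 (5 of 66, 7.58%). The run of 8 makes up 8 of the 22 sites in mt-Rnr1, so the share of that gene rests in part on 1 stretch of 30 bases. ND1, ND2, ND5 and ND6 encode subunits of respiratory complex I, COX2 and COX3 subunits of cytochrome c oxidase, CYTB cytochrome b and ATP6 a subunit of ATP synthase. The native 5 min mean of the sites was 40.1% ± 0.406 in the tRNA genes, 45.1% ± 0.413 in the rRNA genes, 39.9% ± 0.560 in the protein genes and 35.1% ± 1.01 in the control region (SD, n = 4). In mt-Rnr1 the 14 sites outside the run of 8 had 38.8% ± 0.603, close to the other kinds of gene. Of the sites in a single protein gene, 20.3% of the 118 in the group lay at the last codon position, against 8.13% of the other sites.

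After 15 min the rates of the 200 sites had dropped to 6.08% in E2_15, 6.06% in B1_15 and 5.75% in L1_15, against 3.05, 3.17 and 3.08% for the other sites. E1_15 stood apart with 15.4 and 9.82%. In S1_15 the means were 5.23 and 3.10%. The difference without E1_15 was 2.86 points ± 0.179 (SD, n = 3). The ratio of the mean rates outside the run of 8 was 1.25 to 1.29 in the native 5 min libraries and 1.45 to 1.72 in the native 15 min libraries, higher at 15 min in 4 of 4 preparations. Of 198 sites tested at 15 min, 108 were called slow, beside 18.5% of all 1872 sites tested. Of the 108, 98 were also called at 5 min in the same preparations, where 147 of all 200 sites were called. Of the 225 other sites called at 15 min, 127 were also called at 5 min. Without E1_15 the count in the group at 15 min was 56 of 198, beside 6.94% of all sites tested.

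After 40 and 60 min the rates were low, and a difference remained. At 40 min the 200 sites had means of 1.05% in E1_40, 1.56% in E2_40, 2.01% in B1_40, 1.19% in L1_40 and 1.57% in S1_40, and the other sites 0.40 to 0.54%. At 60 min the native means had a lowest value of 0.858%, a median of 1.24% and a highest value of 1.53% over 7 preparations, against 0.335, 0.506 and 0.708% for the other sites. S1_60 had 1.74 and 0.406%, with all 8 sites of the run in mt-Rnr1 in its mean, whereas 5 of the 7 native means hold none of them. Outside the run the native means were 0.858 to 1.46% and that of S1_60 was 0.983%, and at 40 min 0.978 to 1.45% and 0.976%. The lowest native value of the 200 sites lay above the highest of the other sites. The ratio of the means outside the run of 8 was 2.24 ± 0.206 in the native 60 min libraries (SD, n = 7) and 2.42 in S1_60. In E3_90, the only library of 90 min, the means were 2.10 and 1.29%, at a median H-strand coverage of 68 reads.

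**Figure D5:**
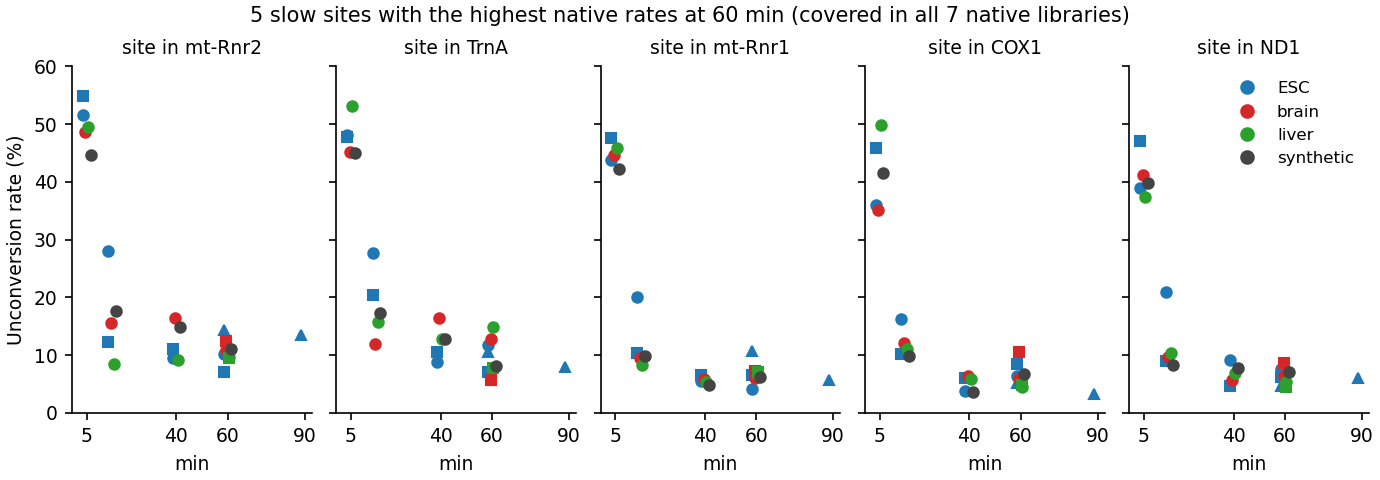
Unconversion rate (%) against the duration of conversion (min) at the 5 slow sites with the highest native means after 60 min among those covered in all 7 native libraries, with 1 point per library covered by 10 or more reads, coloured by ESC, brain, liver and synthetic mtDNA. At 60 min the synthetic point lies within the range of the native points at all 5 sites.

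Few sites of the group kept a native mean of 5% or more at 60 min, while the median of the group also lay above that of the other sites. Of the 186 sites of the group covered in all 7 native libraries, 59 had a native mean of at least 1%, 26 of at least 2% and 6 of at least 5%. Of the 1521 other sites so covered, 156, 34 and 0 did. In S1_60, 56, 25 and 6 of the 186 sites reached these levels, and the 6 sites above 5% were the same. The median native mean was 0.629% over the 186 sites and 0.371% over the other sites. Across the 186 sites, the native 5 and 60 min means were weakly related (Pearson's r = 0.280, Spearman's rho = 0.221). The 5 min mean is over 4 preparations, which are also among the 7 of the 60 min mean.

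Of the 186 sites covered in all 7 native libraries, which leave out the run of 8, that with the highest native mean at 60 min was nt 1766 in mt-Rnr2, in the triplet CCT and in CHG context. Its rates were 51.5, 54.8, 48.7 and 49.4% in E1_05, E2_05, B1_05 and L1_05. At 60 min they were 7.0% at the lowest, 10.1% at the median and 14.3% at the highest over 7 preparations, with 11.1% of 683 reads in S1_60. Nt 5050 in TrnA, the gene of alanine tRNA, had 5.7, 10.6 and 14.8% in the same terms, and 8.1% in S1_60. Nt 666 in mt-Rnr1 had 4.1, 6.6 and 10.7%, with 6.2% in S1_60. Nt 6249 in COX1, the gene of the catalytic subunit of cytochrome c oxidase, had 4.5, 5.9 and 10.6%, with 6.8% in S1_60. Nt 3286 in ND1, covered by 639 to 2103 reads in native mtDNA, had 4.4, 6.2 and 8.6%, with 7.1% of 2587 reads in S1_60. All 5 sites had similar rates at 40 min, with native means of 11.6, 12.1, 5.85, 5.50 and 6.55%. The native ranges of the 5 sites included the synthetic value in each case.

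In the fits across all H-strand sites, 34 of 186 sites tested at 60 min were called slow, beside 4.95% of all 1756 sites tested, and 14 of 197 at 40 min, beside 1.12% of 1867. Of the 34, 28 were also called at 5 min, 30 at 15 min and 14 at 40 min. Over the whole group the calls at these durations were 147 of 200, 108 of 198 and 14 of 197. Of the 52 other sites called at 60 min, 17, 20 and 5 were also called at these durations. E1, E2, B1 and L1 enter the fits at every duration, and E3, B2 and L2 that of 60 min alone. The native means of the 34 sites ran from 0.814 to 10.5%, and all 34 had a rate above 0 in S1_60. By following base they were 21 of 125 sites before adenine, 12 of 36 before thymine, 1 of 9 before guanine and 0 of 16 before cytosine, beside 7.68, 4.69, 5.10 and 1.75% of all sites tested with these following bases. At 40 min the count was 0 without any 1 of E1, E2, B1 and L1, beside 0.0% of all sites. At 60 min it was 19 without E3, 17 without B1, 17 without L1 and 15 without L2, beside 2.51, 1.88, 2.16 and 1.99% of all sites tested. With limma on the empirical logit the counts were 128 and 139, beside 36.0 and 50.3% of all sites tested. In those fits the median of all sites lay 0.65 and 0.68 above the reference on the logit scale.

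No site of the group was called different between native and synthetic mtDNA after 60 min. With 7 native libraries against S1_60, 0 of 186 sites were called, beside 0.00% of all 1756 sites, and 3 had an unadjusted p under 0.05, beside 23 of all sites. Limma on the empirical logit and Fisher's exact test on summed reads also called 0. They gave 13 and 9 sites of the group an unadjusted p under 0.05, beside 151 and 88 of all 1756 sites. The fitted native minus synthetic difference on the logit scale was 0.06 (SE 0.31) at nt 1766, 0.47 (SE 0.52) at nt 5050, 0.23 (SE 0.23) at nt 666, 0.01 (SE 0.40) at nt 6249 and -0.10 (SE 0.50) at nt 3286. With 1 synthetic library the spread comes from the native preparations alone. After adjustment over 1756 sites a call needs a difference well above these errors, so the absence of calls does not show equal rates. At sites without unconverted reads on 1 or both sides the fit gave no usable error. Examples are nt 2588 (SE 1215), nt 5262 (SE 1932) and nt 1232 (SE 4047).

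ESCs and tissues likewise gave no called site at 60 min. Outside the run of 8, the mean of the 200 sites was 0.907% in E1_60, 0.858% in E2_60 and 1.24% in E3_60, against 0.960% in B1_60, 1.46% in B2_60, 1.24% in L1_60 and 0.985% in L2_60. The values of ESCs lie within or below those of tissues and overlap with them. The quasi-binomial test called 0 of 186 sites, beside 0.00% of all sites tested. 3 sites of the group had an unadjusted p under 0.05, beside 30 of all sites. Limma on the empirical logit called 0, with 4 sites of the group at that level, beside 70 of all sites. At nt 5050 the ESC rates were 11.7, 7.0 and 10.6% and the tissue rates 12.7, 5.7, 14.8 and 7.8%. The ESC minus tissue difference there was 0.04 on the logit scale (SE 0.52).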

How the data were processed

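TrimGalore trimming of the first reads, Bismark mapping in PBAT mode to mm10 chrM and calling of cytosines with Perl scripts were done by the authors, with versions not given for these libraries in the sources used here. The deposited coverage is a count of reads, not normalised, and the authors deposited the rate as a percent with 1 decimal. Unconverted reads were taken as percent times coverage, rounded. The study left out reads with 90% or more unconverted cytosines, which cannot be repeated from values per site. The deposited L-strand rates, with means of 29.1 to 41.3% after 60 min, appear to include such reads. Reads are not independent molecules after PCR, so intervals cover counting error only. 74 H-strand cytosines of the reference and λDNA were not analysed here.

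The sites, lists and tests were chosen with earlier results of these data known. Each H-strand site was fitted with a quasi-binomial logistic model (R 4.3.3) with the logit of the library's median H-strand rate, or the pooled rate where the median was 0, as offset. Dispersions were moderated with limma 3.58.1 and not below 1, and p-values adjusted by Benjamini-Hochberg over all H-strand sites with coverage of 10 or more in each library. The scripts were tested on simulated data. The sites named are the 10 highest in S1_05, the 5 highest and 5 lowest native 5 min means, the 5 highest native 60 min means among sites covered in all 7 libraries, 3 on either side of rank 200, and the 3 longest runs. The ESC and tissue comparison of means and nt 5050 as its example were chosen after the values were seen.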

Additional observations from a re-analysis of the deposited data

Results flagged for a closer look

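In each group of 4 to 10 preparations, a value was listed when its gap to the nearest other value was a larger share of the range than Dixon's 95% limit. Of 77 sets of values tested, 9 were listed. A rate of 1 in 20 comes to about 3.9, but it holds only for separate sets of normally distributed values. Here a site with a rate above 0 in only 1 library is always listed, and some sets share the same values. The 9 can therefore not be set against 3.9 as a measure of chance. E1_15 accounts for 4 of the 9. The mean rate of the 200 sites was 15.4% there against 5.75 to 6.08% in the other native 15 min libraries, that of the other sites 9.82% against 3.05 to 3.17%, and the difference 5.63 points against 2.68 to 3.03. Outside the run of 8 in mt-Rnr1 the mean of the 200 sites was 14.2% against 5.11 to 5.25%. The higher level in E1_15 was thus shared by the 200 sites and the other sites.

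The other 5 are single sites in native 60 min libraries with a rate of 0.0% in 6 of 7 preparations. They are nt 1228 (3.6% in L1_60), nt 1244 (6.7% in L1_60), nt 1248 (5.3% in L2_60), nt 5272 (3.7% in L2_60) and nt 5861 (2.4% in E1_60). The first 4 lie in the runs in mt-Rnr2 and TrnY and were covered there by 28, 15, 19 and 27 reads, so that 1 unconverted read gives such a rate. Nt 5861 was covered by 82 reads.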

How the results depend on the processing

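The native 5 min difference between the 200 sites and the other sites kept its sign under every alternative run. It was 10.1 points, 8.33 with 100 or more reads required in S1_05, 7.88 for medians over sites, 8.52 for reads pooled over sites and 8.55 without the run of 8, the last chosen after seeing the data, and 9.94 to 10.3 leaving out each preparation. The count of 147 sites called slow at 5 min ranged from 137 to 168 over all alternatives, and the share over all sites from 20.7 to 26.4%. At 15 min the count of 108 fell to 56 without E1, as the share over all sites fell from 18.5 to 6.94%. Leaving out each preparation gave 56 to 105, beside 6.94 to 17.2% of all sites. At 40 min the count was 14, with 0 leaving out each preparation in turn and 128 with limma on the empirical logit. The shares over all sites were 1.12, 0.0 and 36.0%. At 60 min the count was 34, with 15 to 30 leaving out each preparation and 139 with limma. The shares over all sites were there 4.95, 1.88 to 3.82 and 50.3%. The cause of these changes was not tested, beyond the fewer libraries left. At 40 and 60 min the median of all sites lay 0.24 above the reference on the logit scale, and at -0.17 and -0.21 with the pooled offset. That offset called 10 and 29 sites of the group, beside 0.643 and 4.27% of all sites tested. No site of the group was called between native and synthetic or between ESC and tissue mtDNA under any alternative, replicate block included. With the replicate block 0 were called in both comparisons. Deviations of preparations with the same number at 60 min correlated by -0.087 to 0.020. They were taken around the mean of each series, and many sites had no unconverted read. These correlations therefore cannot show whether the numbers pair the samples. Coverage limits these comparisons, since the median coverage of the 200 sites was 74.5 reads in B2_60.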
